A study of Mus musculus with 13 samples.

Results

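Haematopoietic stem cells (HSCs) whose parent cell had rebuilt platelets alone were compared with HSCs whose parent cell had rebuilt all blood lineages. The comparison takes every library that the labels name PLT (3 libraries, called PLT-HSC) or MULTI (4 libraries, called MUL-HSC), which is 7 of the 13 libraries in the series. The other 6, called PEM-HSC, come from recipients with PEM-restricted reconstitution and are used only for the spread between libraries and for values set side by side. In the study, single Vwf+ HSCs from mouse bone marrow were transplanted, and each recipient's blood was followed for 16 weeks. Donor-derived HSCs were then sorted from the marrow of the recipients, 100 cells per library, and polyadenylated RNA was amplified with Smart-seq+. All groups carried the same strain label (C57BL/6) and the same sort phenotype, LSKFlt3-CD150+CD48-CD45.2+Gata1-, so each library holds Gata1-negative cells and no library is a control that was never transplanted. Each recipient's HSCs descend from 1 transplanted cell, so a library is a pool of cells of 1 origin. The labels do not say whether libraries of a group came from separate recipients, so p-values reflect how far these libraries vary, and part of that variation may be technical.

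HSCs in mouse marrow are not uniform in the blood they make: those that transcribe Vwf, the gene of the clotting protein von Willebrand factor, tend towards platelets, and others give balanced or lymphoid-rich blood. Their identity rests on transcription factors such as Mecom, Meis1 and Gata2, on signals such as thrombopoietin, and on a mostly quiescent cell cycle. Interferons, retinoic acid, TGF-beta and MYC are among the pathways known to change how often HSCs divide, and platelet-biased HSCs become more frequent with age. The table holds 24015 gene symbols, of which 12536 had enough counts to be tested. Read counts on genes ran from 29017378 to 32437607 in PLT-HSC and from 16371921 to 41367057 in MUL-HSC, and 11914 to 12310 genes were detected in PLT-HSC against 11233 to 12182 in MUL-HSC. Spike-in RNA took 0.0195 to 0.0475% of counts in PLT-HSC and 0.0191 to 0.0612% in MUL-HSC. Levels below are CPM, the counts of a gene scaled to a common library total but not to gene length, so they are compared between libraries and not between genes. Per-library values are given for PLT-HSC libraries 1, 2 and 3 and then for MUL-HSC libraries 1, 2, 3 and 4.

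The stem cell label was met by all 12 stem cell identity markers, none of which was at 0 throughout, with a summed level of 2932 to 4496 CPM in PLT-HSC and 2082 to 2994 CPM in MUL-HSC. Kit, the stem cell factor receptor of the sort, stood at 206 to 586 CPM in PLT-HSC and 217 to 379 CPM in MUL-HSC. Markers of other cells were low or patchy. Of 11 neutrophil markers 3 were at 0 in all 7 libraries, and the sum ran from 0.140 to 17.98 CPM in PLT-HSC and from 1.02 to 9.46 CPM in MUL-HSC. Of 10 erythroblast markers 6 were at 0 in all 7, among them the globin genes (sums 35.5 to 74.0 against 9.97 to 53.7 CPM). Of 12 T and NK cell markers 9 were at 0 in all 7, among them Cd3d, Cd3e and Cd3g (sums 148 to 380 against 116 to 232 CPM), and of 10 B and plasma cell markers 5 were, among them Ms4a1 and Pax5 (sums 102 to 179 against 101 to 165 CPM). Macrophage markers summed to 66.6 to 222 CPM in PLT-HSC and 28.4 to 75.6 CPM in MUL-HSC, with Marco and Timd4 at 0 in all 7 and C1qa at no more than 0.503 and 0.792 CPM. Endothelial markers, a list that holds Vwf itself, summed to 179 to 320 against 87.1 to 216 CPM, with Cdh5 and Lyve1 at 0 in all 7. Stromal markers summed to at most 1.15 and 6.38 CPM. Mast cell and basophil markers were at 0 for 7 of 9 genes and summed to at most 0.0348 CPM in PLT-HSC and to 4.40 to 48.3 CPM in MUL-HSC, nearly all of it Cpa3. Single markers that stood higher in PLT-HSC without overlap included Cd68 of the macrophage list (23.8 to 187 against 11.8 to 19.7 CPM). Another was Fcer2a of the B cell list (6.53 to 21.1 against 0 to 4.90 CPM). Klrb1c of the NK list overlapped on the higher side (24.7 to 371 against 0 to 30.9 CPM). Nkg7 overlapped on the lower side (2.90 to 123 against 116 to 201 CPM). The part of such cells in the values below was not tested. In bulk samples, fewer cells of a type and less RNA per cell cannot be told apart.

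Few genes passed the test across the genome. With edgeR's quasi-likelihood test and Benjamini-Hochberg adjustment, 6 of the 12536 tested genes (0.0479%) had an adjusted p under 0.05, 5 of them higher in PLT-HSC (0.0399%) and 1 lower (0.00798%). At an unadjusted p under 0.05 there were 924 genes (7.37%), 515 with higher levels in PLT-HSC (4.11%) and 409 with lower levels (3.26%). The PLT-HSC libraries lay wholly above the MUL-HSC libraries for 459 genes (3.66%) and wholly below them for 367 (2.93%). The median log2 fold change of all tested genes was 0.04, with quartiles of -0.36 and 0.53, and 52.4% of the genes had a positive value. These shares are the background for each group of genes below. Only the 6 genes that passed are given as differing, and every other value is a description. Members named from a list are mostly those with its smallest p, and Hoxb4, Meis1, Igtp, Oas1a, Gbp3, Hells, Cish, Cd27, Pf4 and Gp9 were added after their values were seen.

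The 5 genes that were higher in PLT-HSC encode a clotting factor, a retinoid enzyme, a PHD-finger protein of the interferon list, a catenin-like protein and a transcription factor. Vwf stood at 106, 114 and 181 CPM in PLT-HSC, compared with 5.08, 9.85, 13.4 and 12.2 CPM in MUL-HSC, with no overlap and means 13.2-fold apart (log2 fold change 3.72, SE 0.45, adjusted p = 0.00412). Rdh10, which makes the first and rate-limiting oxidation of retinol towards retinoic acid, stood at 188, 133 and 52.3 CPM against 2.33, 1.41, 0.428 and 4.41 CPM. The lowest PLT-HSC library, library 3, was still above every MUL-HSC library, and the means differed 57.9-fold (log2 fold change 5.83, SE 0.84, adjusted p = 0.0189). Ctnnal1, the gene of alpha-catulin and a mark of HSCs in reporter mice, stood at 86.6, 62.8 and 91.0 CPM against 3.78, 10.3, 12.5 and 15.5 CPM (log2 fold change 2.93, SE 0.50, adjusted p = 0.0487). Phf11d stood at 287, 386 and 142 CPM against 68.6, 40.6, 84.7 and 55.0 CPM (2.13, SE 0.33, adjusted p = 0.0289). Mef2c, which encodes a MADS-box transcription factor of lymphoid cells and megakaryocytes, stood at 439.9, 375 and 334 CPM against 153, 197, 128 and 130.4 CPM (1.33, SE 0.23, adjusted p = 0.0487). Each of the 5 was separated without overlap, and the spread within PLT-HSC was widest for Rdh10 and narrowest for Mef2c among them, as the highest to the lowest library shows. Without PLT-HSC library 3, 37 genes passed, and without MUL-HSC library 3, 21 did, whereas leaving out any of the other 5 libraries left 1 to 3. Over 18 alternatives Vwf passed in 16, Rdh10 in 11, Phf11d in 9, Mef2c and Otos in 7 and Ctnnal1 in 4, each with the same sign throughout.

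**Figure D1:**
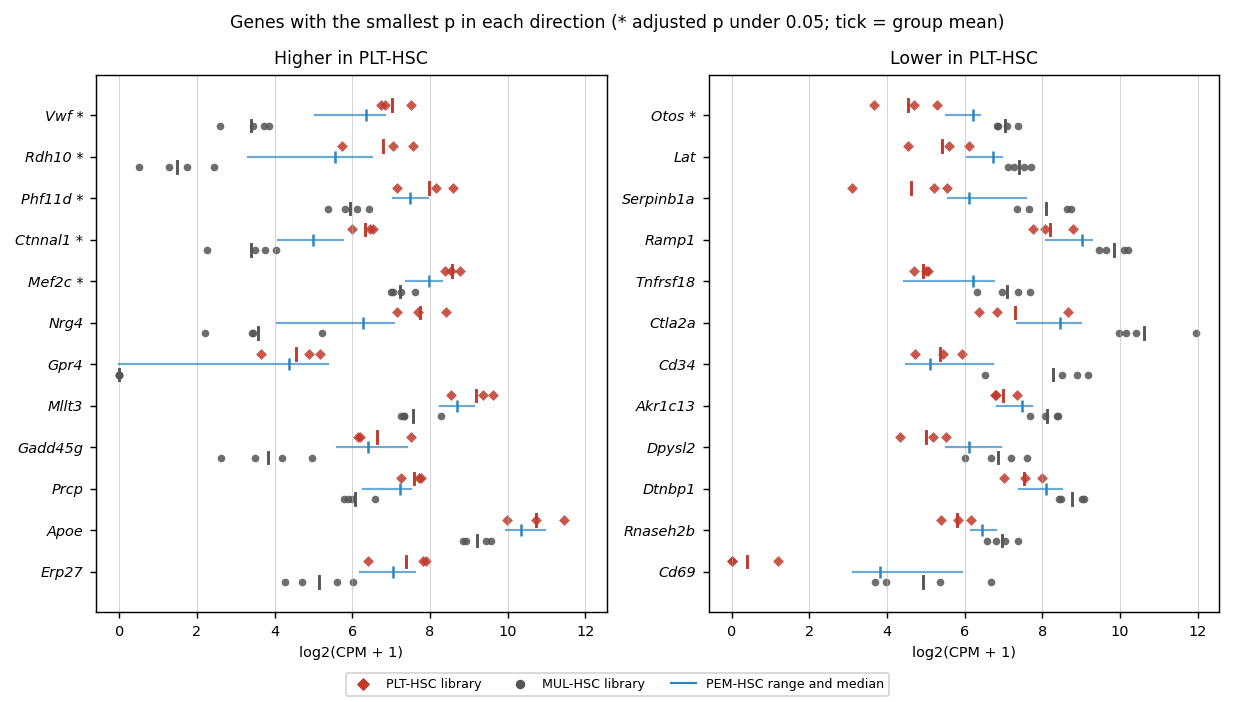
Levels of the 12 named genes with the smallest p in each direction, on an axis of log2(CPM + 1), with diamonds for PLT-HSC libraries, circles for MUL-HSC libraries, ticks for the mean of each group on that axis, a line and tick for the range and median of the 6 PEM-HSC libraries, and a star for an adjusted p under 0.05. For Rdh10 the 3 PLT-HSC libraries sit between 52.3 and 188 CPM and the 4 MUL-HSC libraries between 0.428 and 4.41 CPM.

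The next genes by p value with higher levels in PLT-HSC did not pass the adjustment. Nrg4, an epidermal growth factor family ligand, stood at 204, 342 and 142 CPM against 3.59, 9.89, 9.78 and 36.3 CPM (log2 fold change 3.94, SE 0.70, adjusted p = 0.0554). Mllt3, a chromatin reader that sustains human HSCs in culture, stood at 661, 792 and 372 CPM against 162, 162, 310.1 and 152 CPM (1.63, SE 0.31, adjusted p = 0.0599). Gadd45g, a stress sensor of the growth arrest family, stood at 70.3, 182 and 72.7 CPM against 5.13, 10.4, 17.4 and 30.5 CPM (2.77, SE 0.55, adjusted p = 0.0906). In all 3 the groups did not overlap, and MUL-HSC library 3 or 4 was the MUL-HSC library nearest to PLT-HSC. Apoe, the lipid carrier apolipoprotein E, stood at 1710.0, 2820.1 and 1013 CPM against 766, 485, 701 and 458 CPM (adjusted p = 0.0911). Prcp, a lysosomal carboxypeptidase, stood at 217, 152 and 208 CPM against 53.8, 58.8, 94.7 and 63.0 CPM (adjusted p = 0.0911). Erp27, a protein of the endoplasmic reticulum, stood at 238, 224 and 84.3 CPM against 18.1, 25.2, 63.6 and 47.6 CPM (adjusted p = 0.0911). Here too no PLT-HSC library was as low as the highest MUL-HSC library.

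In the other direction 1 gene passed the test. Otos, the gene of a small secreted protein known from the inner ear, stood at 24.9, 11.8 and 37.7 CPM in PLT-HSC, compared with 163, 135, 114 and 112 CPM in MUL-HSC, a mean 5.29-fold higher in MUL-HSC (log2 fold change -2.40, SE 0.39, adjusted p = 0.036). Next came Lat, the adaptor that links receptors to signalling in T cells and platelets, at 47.0, 22.03 and 68.2 CPM against 182, 208, 137 and 153 CPM (-1.89, SE 0.34, adjusted p = 0.0555). Serpinb1a, an inhibitor of neutrophil proteases, stood at 7.62, 45.7 and 36.2 CPM against 427, 399, 200.1 and 161 CPM (-3.31, SE 0.61, adjusted p = 0.0593). The groups did not overlap in these 3 genes, and in Serpinb1a MUL-HSC libraries 1 and 2 were the highest. Ramp1, a subunit of the receptor for the nerve peptide CGRP, stood at 214, 268 and 442 CPM against 1103, 1173, 796 and 697 CPM (-1.61, SE 0.30, adjusted p = 0.0593). Tnfrsf18, the receptor GITR, stood at 24.8, 31.0 and 32.2 CPM against 205, 165, 123 and 78.8 CPM (adjusted p = 0.114). Ctla2a, a cysteine protease inhibitor with a near-identical neighbour, stood at 114, 81.8 and 403 CPM against 1366, 3981, 1006 and 1130.3 CPM (adjusted p = 0.123). PLT-HSC library 3 was the highest of its group in all 3 and still below each MUL-HSC library.

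Cd34, a surface glycoprotein of progenitors that long-term mouse HSCs carry little of, belongs to the same set. It stood at 42.1, 25.5 and 60.1 CPM in PLT-HSC, compared with 574, 470.2, 91.0 and 363 CPM in MUL-HSC (log2 fold change -3.14, SE 0.67, adjusted p = 0.132). MUL-HSC library 3 lay closest to PLT-HSC. Cd69, an activation antigen, was at 0, 0 and 1.28 CPM in PLT-HSC, compared with 40.1, 102, 14.7 and 11.8 CPM in MUL-HSC (-6.58, SE 1.57, adjusted p = 0.194), and its fitted value was -13.09 without PLT-HSC library 3, when the group is at 0. The remaining genes by the same rule were Akr1c13, an aldo-keto reductase (109, 162 and 110.3 against 338, 330.5, 265 and 203 CPM), and Dpysl2, a microtubule-binding protein (44.7, 18.98 and 35.3 against 63.0, 144, 101 and 194 CPM). Dtnbp1, a subunit of a lysosome-related organelle complex, stood at 186, 129 and 252 against 541, 513, 356 and 343 CPM, and Rnaseh2b, a subunit of the enzyme that removes RNA from DNA, at 41.0, 70.2 and 55.8 against 164, 129, 111 and 94.8 CPM. Their adjusted p values were 0.151, 0.176, 0.189 and 0.194 in that order.

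A few genes were detected in PLT-HSC or in MUL-HSC but not in the other. Gpr4, a proton-sensing receptor, was at 11.5, 28.4 and 35.1 CPM in PLT-HSC, with a level of 0 in all 4 MUL-HSC libraries, which is at least 882-fold higher against a floor of 3 counts over the MUL-HSC group (adjusted p = 0.0576). Gabra4, a subunit of the GABA receptor, stood at 12.99, 7.37 and 7.57 CPM and was at least 328-fold higher. Evc, a protein of the primary cilium, stood at 9.96, 9.42 and 7.596 CPM and was at least 317-fold higher. Such a bound covers counting only, and the counts include PCR copies. With at least 5 CPM in every library of the other group as the limit, 3 named genes were seen in PLT-HSC but not MUL-HSC. Seen in MUL-HSC but not PLT-HSC was 1 gene model, BC016579 (6.33 to 15.2 CPM, at least 315-fold higher). Each was also seen in part of the PEM-HSC libraries. Gpr4 ran from 0 to 40.8 CPM there (mean 19.1) and Evc from 0 to 17.4 CPM (mean 5.38). In the same libraries Gabra4 ran from 0 to 17.0 CPM (mean 4.59) and BC016579 from 0 to 7.31 CPM (mean 2.36).

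Smaller differences were read over 50 pathways and gene families, described by counts and medians with no test of a list. The lists with the highest medians were genes reported as higher in aged HSCs (1.63), Hox genes (0.75), immediate early genes (0.62) and interferon response genes (0.61). The lowest medians were those of mitosis (-0.84), DNA replication and S phase (-0.65), core histones (-0.35) and lymphoid priming (-0.29). Heat shock genes (0.00), SR splicing factors (0.00) and retinoid genes (0.03) had medians close to the 0.04 of all genes. A median close to that value does not show that no member differs.

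**Figure D2:**
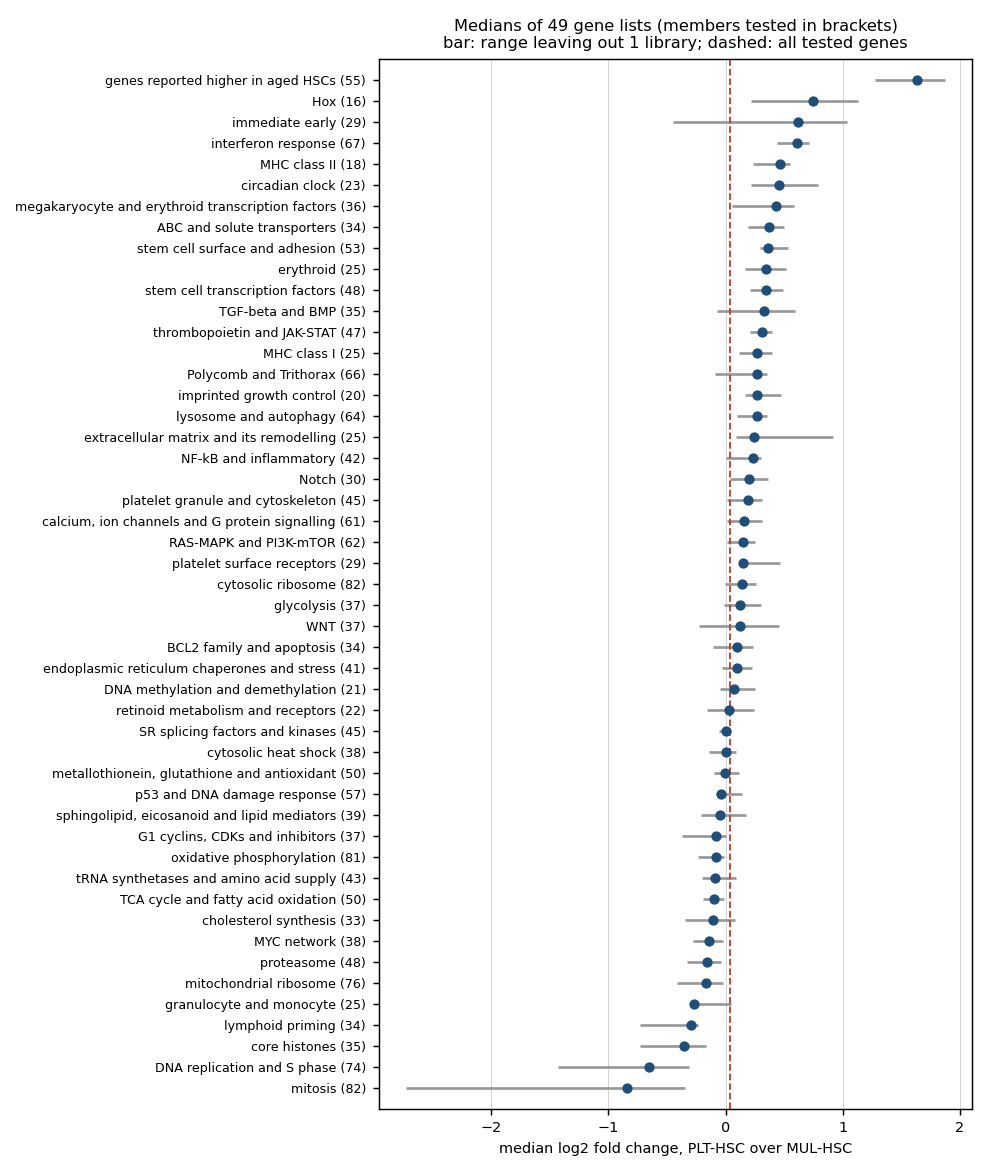
Median log2 fold change, PLT-HSC over MUL-HSC, of each list of genes shown, as points, with bars for the range over the fits that leave out 1 library, a dashed line at the median of all tested genes and the number of tested members in brackets. The aged-HSC list is at 1.63 and mitosis at -0.84, and the range of the mitosis list is the wider of these.

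Stem cell transcription factors had positive values in 34 of 48 tested genes, with a median of 0.34. An unadjusted p under 0.05 was found for 8, all with higher levels in PLT-HSC, against 4.11% of all genes. None passed the adjustment. Mycn, a MYC family factor, stood at 422, 425 and 476 CPM against 90.0, 50.4, 318 and 157 CPM (log2 fold change 1.52, SE 0.43, adjusted p = 0.347). Mecom, the EVI1 locus factor that long-term HSCs need, stood at 207, 157 and 244 CPM against 45.2, 104, 99.1 and 58.9 CPM (1.4, adjusted p = 0.445). Both were separated, with MUL-HSC library 3 nearest for Mycn and MUL-HSC library 2 for Mecom. Meis1, a HOX cofactor, stood at 697, 398 and 366 CPM against 294, 318, 341 and 353 CPM (0.58, adjusted p = 0.646). Prdm16, a regulator that preserves HSCs, stood at 28.3, 3.24 and 25.6 CPM against 0.559, 2.06, 5.93 and 5.89 CPM (2.40, adjusted p = 0.632). Gata2 stood at 136, 91.8 and 165 CPM against 66.9, 93.6, 86.8 and 86.3 CPM, so here and in Prdm16 PLT-HSC library 2 lay among the MUL-HSC libraries. Hlf, another factor of HSC identity, had the opposite sign (206, 157 and 198 against 229.7, 149, 314 and 235 CPM, log2 fold change -0.31, SE 0.29).

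HOX genes, which pattern the body axis and expand blood progenitors, were low, and 16 of 39 could be tested. Of these 12 had positive values, but the list depended on libraries: its median was 0.75 with all libraries and 0.10 without MUL-HSC libraries 1 and 2. Hoxb8 was the only member with an unadjusted p under 0.05, at 4.35, 24.6 and 1.65 CPM against 0, 0, 1.83 and 0 CPM. Hoxb4 stood at 11.8, 3.87 and 5.86 CPM against 1.398, 1.21, 6.36 and 7.49 CPM, and the groups overlapped in both genes.

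Among 53 stem cell surface and adhesion genes, 9 had an unadjusted p under 0.05 with higher and 6 with lower levels in PLT-HSC (4.11% and 3.26% of all genes), and of these Ctnnal1 alone passed the adjustment. Jam2, an adhesion protein of the junctional family, stood at 199.6, 228 and 54.4 CPM against 28.8, 28.4, 36.2 and 45.1 CPM (log2 fold change 2.21, adjusted p = 0.31). Neo1, the netrin receptor neogenin, stood at 196, 39.9 and 50.9 CPM against 6.57, 3.67, 43.1 and 8.16 CPM (2.64, adjusted p = 0.411). Esam, an endothelial and HSC adhesion protein, stood at 288, 202 and 307 CPM against 128, 118, 167 and 238 CPM. PLT-HSC library 3 was close to MUL-HSC for Jam2, library 2 overlapped for Neo1, and library 2 overlapped for Esam. Slamf1, the gene of CD150 by which the cells were sorted, stood at 248, 358 and 121 CPM against 33.3, 63.7, 200.4 and 60.4 CPM (1.44, adjusted p = 0.537), and MUL-HSC library 3 lay above the lowest PLT-HSC library. On the lower side stood Cd34, given above, and Flt3, a sort gene that did not overlap and is given with the lymphoid genes. Among the further sort genes the groups overlapped for Kit, given above, and for those that follow. Levels were as follows: Ly6a at 222 to 1575 against 346 to 610.2 CPM, Procr at 85.8 to 308 against 145 to 237 CPM, Ptprc at 300.4 to 342 against 204 to 382 CPM, Cd48 at 0 to 11.1 against 6.84 to 61.1 CPM, Gata1 at 0 to 22.6 against 6.17 to 28.8 CPM and Itga2b at 0 to 14.2 against 1.59 to 16.1 CPM.

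Genes reported as higher in HSCs of old mice had positive values in 47 of 55 tested members. An unadjusted p under 0.05 was found for 31, all with higher levels in PLT-HSC, against 4.11% of all genes. Vwf and Mef2c of this list passed the adjustment. Cdkn1c, which encodes the cell cycle inhibitor p57 of quiescent HSCs, stood at 147, 141 and 45.0 CPM against 32.8, 31.1, 40.4 and 30.4 CPM (log2 fold change 1.72, SE 0.37, adjusted p = 0.132). Gstm2, a glutathione transferase, stood at 207, 494 and 119.7 CPM against 13.2, 51.8, 84.3 and 43.3 CPM (2.51, adjusted p = 0.132). Both were separated, with PLT-HSC library 3 lowest in its group. The list mean of log2(CPM + 1), set to 0 over all 13 libraries, was 0.77, 1.15 and -0.09 in PLT-HSC and -1.72, -1.55, -0.20 and -0.34 in MUL-HSC. In PEM-HSC it ran from -0.20 to 0.75, overlapping PLT-HSC. Between PLT-HSC and PEM-HSC 3 of 55 members had an unadjusted p under 0.05 with edgeR (3.73% of all genes). MUL-HSC libraries 1 and 2 stood far below libraries 3 and 4, and without them 47 of 56 members were positive, 18 had an unadjusted p under 0.05, and the median was 1.23.

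Platelet surface receptors had 5 of 29 members with an unadjusted p under 0.05, all with higher levels in PLT-HSC (4.11% of all genes). Their median was 0.15. The count was 0 without MUL-HSC libraries 1 and 2, and 3 higher and 1 lower without MUL-HSC library 1, PLT-HSC library 1 or PLT-HSC library 3. Tbxa2r, the thromboxane receptor, stood at 54.8, 60.6 and 96.2 CPM against 10.3, 13.1, 43.5 and 27.6 CPM (log2 fold change 1.58, adjusted p = 0.537). Gp9, a subunit of the receptor that binds von Willebrand factor, stood at 79.6, 71.9 and 74.0 CPM against 27.9, 52.7, 58.4 and 29.4 CPM (0.84). Both were separated between groups. Among 45 platelet granule and cytoskeleton genes, 7 had higher and 2 had lower levels at that p (4.11% and 3.26% of all genes). Their median was 0.19. Sdpr, a caveolar protein, stood at 247, 261 and 116 CPM against 2.24, 24.9, 57.7 and 56.0 CPM (2.56, adjusted p = 0.297), and Snap23, a fusion protein of granule release, at 560.4, 431 and 209.5 CPM against 209.8, 166, 200.3 and 232 CPM (0.99, adjusted p = 0.247). PLT-HSC library 3 was the lowest of its group in both and overlapped MUL-HSC for Snap23. Pf4, the platelet factor 4 of alpha granules, had the opposite sign at 41.0, 24.3 and 53.5 CPM against 41.0, 41.0, 148 and 163 CPM (-1.31, adjusted p = 0.63), and MUL-HSC libraries 3 and 4 stood above the other 5. The 13 markers of mature megakaryocytes and platelets summed to 156 to 218 CPM in PLT-HSC and 167 to 330 CPM in MUL-HSC and thus overlapped. Of the 11 that were tested, 4 had positive and 7 negative values, with a median of -0.96. The PLT-HSC libraries lay wholly above MUL-HSC for 2 and wholly below for 3 (3.66% and 2.93% of all genes).

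Transcription factors of megakaryocytes and erythroid cells had positive values in 25 of 36 tested genes (median 0.43, and 0.06 without PLT-HSC library 3). Besides Mef2c, Hhex, a homeobox factor, stood at 234, 246 and 198 CPM against 125, 76.5, 134 and 204 CPM (0.74), and Tcf12, a partner of SCL, at 77.8, 84.2 and 29.6 CPM against 99.4, 144, 101 and 109.6 CPM (-0.83). Tcf12 was separated, and Hhex overlapped through MUL-HSC library 4. Of 44 erythroid genes, 25 could be tested. At an unadjusted p under 0.05, 3 had higher and 2 had lower levels in PLT-HSC (4.11% and 3.26% of all genes). Epb4.1, a protein of the red cell skeleton, stood at 47.3, 34.4 and 59.5 CPM against 22.8, 0.202, 17.4 and 13.4 CPM (1.81, SE 0.80). Car2, carbonic anhydrase II, stood at 8267, 8763 and 4765 CPM against 4857, 6069, 4937 and 3766 CPM (0.57), with PLT-HSC library 3 among the MUL-HSC libraries.

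Genes of lymphoid priming had negative values in 20 of 34 tested members and a median of -0.29. At an unadjusted p under 0.05, 6 had lower and 2 had higher levels in PLT-HSC, against 3.26% and 4.11% of all genes. Flt3, the cytokine receptor of lymphoid-primed progenitors that the sort selects against, was at 0, 0 and 0.0279 CPM in PLT-HSC, compared with 11.05, 41.1, 0.428 and 8.34 CPM in MUL-HSC (adjusted p = 0.491). Cd27, a TNF receptor family member, stood at 133, 150.2 and 33.2 CPM against 235, 285, 184 and 229 CPM (log2 fold change -1.14, adjusted p = 0.63). Blnk, the adaptor of B cell receptor signalling, was at 0 in all PLT-HSC libraries and in MUL-HSC libraries 1 and 2, and at 7.88 and 8.94 CPM in MUL-HSC libraries 3 and 4. Lat lay without overlap on the same side, while Mef2c, also a member, was higher in PLT-HSC. The list mean was -0.27, -0.45 and -0.35 in PLT-HSC and 0.32, 0.36, 0.05 and 0.59 in MUL-HSC. Each PLT-HSC library thus lay below each MUL-HSC library. In PEM-HSC the mean ran from -0.62 to 0.37, overlapping both. The summed levels overlapped, at 3487, 4292 and 2054 CPM in PLT-HSC against 3481, 3561, 3083 and 2965 CPM in MUL-HSC, and PLT-HSC library 2 was the highest of the 7. Granulocyte and monocyte genes had 0 members with higher and 2 with lower levels at that p among 25 (median -0.27, and 0.04 without MUL-HSC library 1). Cpa3, a mast cell protease that early progenitors also transcribe, was at 0 in all 3 PLT-HSC libraries and at 48.3, 39.0, 4.40 and 13.4 CPM in MUL-HSC, and Mgst1, a microsomal glutathione transferase, stood at 34.3, 58.8 and 46.3 CPM against 121, 126, 86.6 and 55.6 CPM (-1.06).

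Interferon response genes leaned to 1 side without a test of the list: 60 of 67 tested members had positive values, 16 had an unadjusted p under 0.05 with higher levels in PLT-HSC and 0 with lower levels (4.11% and 3.26% of all genes). In 10 members the PLT-HSC libraries lay wholly above the MUL-HSC libraries (3.66% of all genes), and Phf11d alone passed the adjustment. Interferons signal through JAK kinases to transcription factors that bind a promoter motif, the interferon-stimulated response element. Promoters of 3 members, chosen after their values were seen, are shown to let that motif be seen beside the values, with Phf11d for comparison. The sequences are from RefSeq (GRCm38.p6), 250 bases before to 50 after the gene's start, 5′ to 3′ on the gene's strand, and capitals mark each place where GAAA, any 2 bases and GAAA again follow each other on either strand. Rsad2 is on the minus strand of chr12:26456403-26456702 and its match begins at base -120 from the start. Igtp is on the plus strand of chr11:58199306-58199605 with a match at -34, and Oas1a on the minus strand of chr5:120907476-120907775 with 2 overlapping matches at -20 and -14. Phf11d, on the minus strand of chr14:59365441-59365740, has 0 matches in this window.
Rsad2: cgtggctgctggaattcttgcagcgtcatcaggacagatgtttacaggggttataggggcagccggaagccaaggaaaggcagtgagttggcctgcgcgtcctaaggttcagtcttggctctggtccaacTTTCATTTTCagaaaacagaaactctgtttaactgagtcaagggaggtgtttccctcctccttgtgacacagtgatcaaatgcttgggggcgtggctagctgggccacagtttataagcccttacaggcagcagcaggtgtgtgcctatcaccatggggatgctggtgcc
Igtp: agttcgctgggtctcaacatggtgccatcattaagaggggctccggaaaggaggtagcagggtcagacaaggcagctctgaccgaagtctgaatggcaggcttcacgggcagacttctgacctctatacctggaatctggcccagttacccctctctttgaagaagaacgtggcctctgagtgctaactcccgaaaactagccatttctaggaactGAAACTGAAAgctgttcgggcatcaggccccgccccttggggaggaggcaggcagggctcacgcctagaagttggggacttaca
Oas1a: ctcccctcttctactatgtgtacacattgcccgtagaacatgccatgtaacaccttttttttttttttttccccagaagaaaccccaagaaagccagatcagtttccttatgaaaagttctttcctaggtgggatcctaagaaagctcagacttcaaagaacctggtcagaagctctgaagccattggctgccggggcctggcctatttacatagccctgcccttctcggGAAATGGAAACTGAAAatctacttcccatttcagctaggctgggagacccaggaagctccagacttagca
Phf11d: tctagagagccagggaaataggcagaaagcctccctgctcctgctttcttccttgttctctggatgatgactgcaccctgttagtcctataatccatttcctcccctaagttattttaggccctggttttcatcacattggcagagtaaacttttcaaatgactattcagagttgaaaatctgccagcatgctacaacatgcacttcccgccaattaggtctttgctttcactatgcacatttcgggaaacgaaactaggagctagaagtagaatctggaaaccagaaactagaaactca
Over all 27025 genes with a promoter in RefSeq's table, 3.99% hold the motif, and so do 386 of the 10016 tested genes that could be matched (3.85%). It is held by 25 of 51 matched members of the list (49.0%) and by 9 of 13 matched members with an unadjusted p under 0.05 (69.2%). A match is a description of letters and not of binding.

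The levels of those genes were as follows. Rsad2, the antiviral enzyme viperin, stood at 112, 77.8 and 53.5 CPM in PLT-HSC, compared with 26.7, 7.07, 37.2 and 9.98 CPM in MUL-HSC (log2 fold change 2.0, SE 0.53, adjusted p = 0.271). Igtp, an interferon-gamma induced GTPase, stood at 1046, 494 and 323 CPM against 164, 302, 468 and 313 CPM (0.99, adjusted p = 0.63). Oas1a, an enzyme that senses double-stranded RNA, stood at 66.1, 95.5 and 57.9 CPM against 47.0, 12.4, 51.6 and 30.3 CPM (1.05, adjusted p = 0.63). The groups did not overlap for Rsad2 and Oas1a, and for Igtp MUL-HSC library 3 lay above PLT-HSC library 3. Samhd1, a nucleotide hydrolase that restricts viruses, stood at 294, 163 and 118 CPM against 84.2, 95.3, 77.9 and 100.0 CPM (1.10, SE 0.30, adjusted p = 0.297). Gbp3, a guanylate-binding protein, stood at 277, 159.9 and 95.3 CPM against 74.8, 48.3, 80.0 and 89.5 CPM (1.28, adjusted p = 0.496). In both genes the groups were separated, PLT-HSC library 1 was the highest of the 7 libraries and library 3 the lowest of its group.

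Across the whole list the mean of log2(CPM + 1) was 0.55, 0.28 and -0.05 in PLT-HSC and -0.58, -0.54, -0.22 and -0.41 in MUL-HSC. Each PLT-HSC library thus lay above each MUL-HSC library. The 6 PEM-HSC libraries, at -0.04 to 0.43, did so too and lay within the PLT-HSC range. Between PLT-HSC and PEM-HSC 1 of 67 members had an unadjusted p under 0.05 with edgeR (3.73% of all genes). The sum of CPM, which the most abundant members dominate, ordered otherwise: PLT-HSC library 3 summed to 11926 CPM, below the 12346 to 15635 CPM of MUL-HSC, while libraries 1 and 2 summed to 20904 and 25233 CPM. Ly6e, the member with the highest level, stood at 2841, 5745 and 1727 CPM against 2315, 2365, 2433 and 2143 CPM. Without PLT-HSC library 1, 55 of 67 members were positive and 9 had an unadjusted p under 0.05, with a median of 0.43. Without PLT-HSC library 3 the count at that p was 26, and without MUL-HSC libraries 1 and 2 it was 11 with a median of 0.60. MHC class I genes, which interferons induce, had positive values in 24 of 25 tested members, with a small median of 0.27. Without PLT-HSC library 2, 16 of 25 were positive and the median was 0.11. H2-D1, a classical class I gene, stood at 2137, 1994 and 1444 CPM against 1060.3, 1174, 1425 and 1276 CPM (0.59, SE 0.19, adjusted p = 0.491). H2-K1 stood at 5199.6, 5972 and 3798 CPM against 3454, 3497, 4438 and 3543 CPM (0.42). MHC genes are similar in sequence, so reads may have been shared among them. MHC class II genes had a median of 0.47 over 18 members, but PLT-HSC library 3 was low: H2-Eb1 stood at 258, 325 and 85.7 CPM against 49.0, 136, 105 and 117 CPM (1.13, adjusted p = 0.589), and the invariant chain Cd74 at 2298, 3757 and 434 CPM against 335, 1493, 1177 and 1013 CPM (1.11, adjusted p = 0.743).

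**Figure D3:**
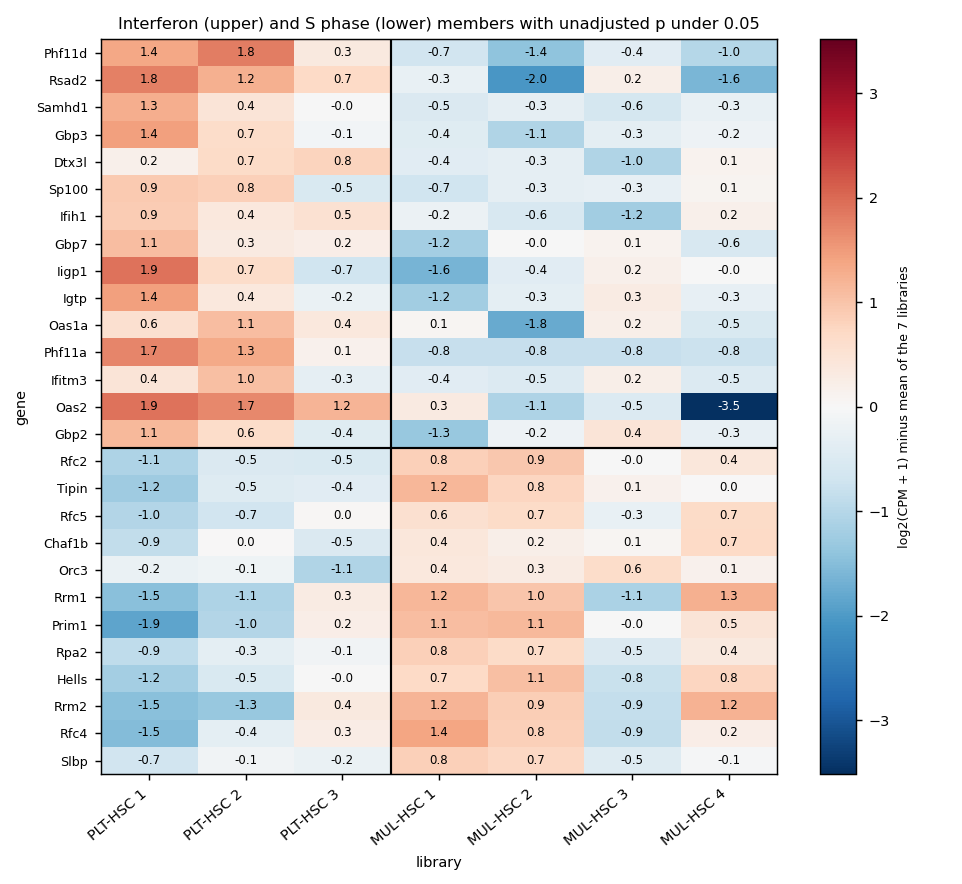
Heat map of members of the interferon list (upper rows) and of the S phase list (lower rows) that had an unadjusted p under 0.05, in each library (columns), as log2(CPM + 1) minus the mean of the 7 libraries, red above and blue below it. The members were picked by that p, so a difference between the groups is built in, and what can be read is which libraries depart from their group, such as PLT-HSC library 3 for Igtp and MUL-HSC library 3 for Hells.

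The cell cycle lists lay on the other side of zero and depended on single libraries. Genes of DNA replication and S phase had negative values in 57 of 74 members (median -0.65), and 12 had an unadjusted p under 0.05 with lower levels in PLT-HSC, against 3.26% of all genes. None had higher levels at that p. Rfc2, a subunit of the clamp loader of DNA polymerase, stood at 199, 297 and 293 CPM against 754, 817, 422 and 559.8 CPM (log2 fold change -1.28, SE 0.31, adjusted p = 0.201). Tipin, which protects stalled replication forks, stood at 98.8, 171 and 178 CPM against 532, 398, 260.2 and 238 CPM (-1.26, SE 0.32, adjusted p = 0.236). Chaf1b, a histone chaperone of replicating DNA, stood at 98.1, 183 and 125 CPM against 239, 208, 189 and 294 CPM (-0.78, adjusted p = 0.496). These 3 were separated in every library, including PLT-HSC library 3. Rfc5, another clamp loader subunit, stood at 78.5, 100.4 and 165 CPM against 238, 259, 134 and 257 CPM (-0.95), and Hells, a chromatin remodeller of dividing cells, at 29.3, 47.1 and 67.4 CPM against 112, 144, 39.2 and 117 CPM (-1.10). In both, MUL-HSC library 3 lay among the PLT-HSC libraries.

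E2F factors drive S phase genes through sites in their promoters, and the Hells promoter is shown as an example of a match, chosen after its values were seen. It is on the plus strand of chr19:38930740-38931039 (RefSeq, GRCm38.p6), 5′ to 3′, with capitals on the match TTTCCCGC at base -62 from the start. The search used TTTCCCGC, TTTGGCGC, TTTCGCGC and TTTGCCGC on both strands, and matches may overlap.
Hells: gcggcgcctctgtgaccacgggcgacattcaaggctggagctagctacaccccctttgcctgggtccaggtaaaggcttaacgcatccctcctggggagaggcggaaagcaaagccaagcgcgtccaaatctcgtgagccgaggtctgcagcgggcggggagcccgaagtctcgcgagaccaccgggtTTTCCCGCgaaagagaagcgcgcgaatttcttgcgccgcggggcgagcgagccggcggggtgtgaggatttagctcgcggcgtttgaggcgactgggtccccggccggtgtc
One of these motifs is held by 2.6% of all promoters in the table, by 4.77% of the matched tested genes and by 24 of 60 matched members of the S phase list (40%). Of the 10 matched members with an unadjusted p under 0.05, 2 hold it (20%).

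Mitosis genes had negative values in 60 of 82 members (median -0.84). Of these, 5 had an unadjusted p under 0.05 with lower levels in PLT-HSC, against 3.26% of all genes. Mad2l1, a spindle checkpoint protein, stood at 30.5, 62.9 and 105 CPM against 259.6, 142, 78.0 and 146 CPM (-1.24), and Plk4, the kinase of centriole copying, at 0, 3.65 and 2.18 CPM against 18.7, 32.2, 13.3 and 31.7 CPM (-3.62, adjusted p = 0.646). Plk4 was separated, and for Mad2l1 MUL-HSC library 3 lay below PLT-HSC library 3. The list mean was -2.00, -1.44 and 1.22 in PLT-HSC and 0.85, 1.14, -1.31 and 0.57 in MUL-HSC. PLT-HSC library 3 was thus the highest of the 7 libraries and MUL-HSC library 3 was as low as the other PLT-HSC libraries. For S phase the means were -1.27, -0.73 and 0.76 in PLT-HSC against 1.0, 0.49, -0.50 and 0.44 in MUL-HSC, so PLT-HSC library 3 was the second highest of the 7 after MUL-HSC library 1, and MUL-HSC library 3 the lowest of its group but above PLT-HSC libraries 1 and 2. Without PLT-HSC library 3, 80 of 82 mitosis members were negative, 36 had an unadjusted p under 0.05 and the median was -2.73. Without PLT-HSC library 1 the count at that p was 0 and the median -0.34, and without MUL-HSC libraries 1 and 2 the median was 0.10 with 49 members positive. For S phase the corresponding medians were -1.43, -0.31 and -0.16, with 31, 5 and 5 members at that p.

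**Figure D4:**
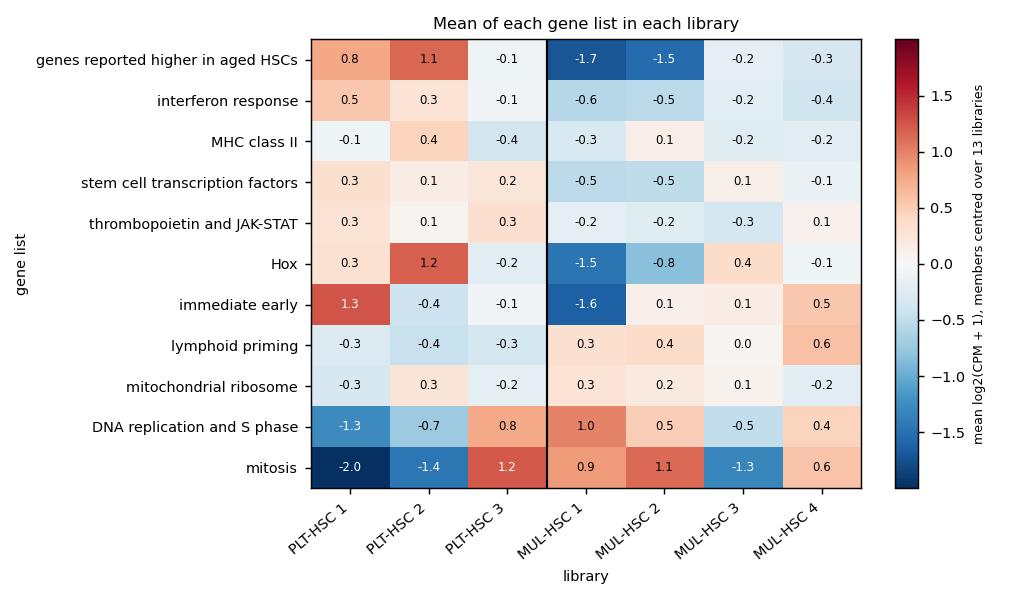
Heat map of the mean of log2(CPM + 1) over the members of 11 lists (rows) in each PLT-HSC and MUL-HSC library (columns), set to 0 over all 13 libraries, red above and blue below it, with the value in each cell and a black line between the groups. PLT-HSC library 3 stands at 1.22 for mitosis while libraries 1 and 2 stand at -2.00 and -1.44, and for lymphoid priming all 3 lie below the MUL-HSC libraries.

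G1 regulators had no common sign (17 of 37 positive, median -0.08). Ccnd1, cyclin D1, stood at 61.1, 42.1 and 72.5 CPM against 16.5, 11.02, 21.3 and 33.4 CPM (log2 fold change 1.51, SE 0.46, adjusted p = 0.461), and Rb1, the retinoblastoma protein that holds cells in G1, at 57.5, 24.3 and 45.4 CPM against 15.4, 5.81, 8.62 and 8.74 CPM (2.14). Cdk4, the kinase partner of cyclin D, had the opposite sign, at 566, 917 and 805 CPM against 1384, 1371, 1003 and 878 CPM (-0.60, adjusted p = 0.589). Ccnd1 and Rb1 were separated and Cdk4 overlapped. The MYC network had 24 of 38 members negative (median -0.14). At an unadjusted p under 0.05, 4 had lower and 1 had higher levels in PLT-HSC (3.26% and 4.11% of all genes). Without MUL-HSC libraries 1 and 2 the counts were 1 lower and 2 higher, with a median of -0.04. Myc itself stood at 260.0, 153 and 283 CPM against 419, 411, 394 and 612 CPM (-0.99, SE 0.33, adjusted p = 0.536), while its family member Mycn, above, had the opposite sign.

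Signalling genes were read by role. Of 47 genes of thrombopoietin and JAK-STAT signalling 33 were positive (median 0.31). An unadjusted p under 0.05 with higher levels in PLT-HSC was found for 6, against 4.11% of all genes. Among targets and inhibitors, Socs5 stood at 47.8, 52.3 and 52.3 CPM against 25.8, 30.8, 22.98 and 28.2 CPM (0.91), and Cish, which damps STAT5 signalling, at 92.3, 122 and 139 CPM against 82.0, 61.1, 37.7 and 80.1 CPM (0.85). The survival kinase Pim2 stood at 637, 559 and 230.0 CPM against 252, 300.4, 221 and 362 CPM (0.74), so Socs5 and Cish were separated and Pim2 was not. In the TGF-beta and BMP pathway 24 of 35 genes were positive, but the median of 0.33 became -0.07 without PLT-HSC library 3. Its co-receptor Tgfbr3 stood at 59.3, 69.6 and 114 CPM against 29.6, 35.5, 14.1 and 20.04 CPM (1.71, SE 0.39, adjusted p = 0.178). The BMP receptor Bmpr2 stood at 54.0, 69.9 and 117 CPM against 48.8, 8.40, 32.1 and 7.65 CPM (1.73, adjusted p = 0.536). The decoy receptor Bambi had the opposite sign, at 13.1, 12.02 and 22.8 CPM against 47.6, 76.6, 40.7 and 37.7 CPM (-1.67, adjusted p = 0.444). All 3 were separated. The ligand subunit Inhba was at 31.1, 35.1 and 0.447 CPM in PLT-HSC, with a level of 0 in all MUL-HSC libraries, with library 3 near zero.

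Of 62 genes of RAS-MAPK and PI3K-mTOR signalling 38 were positive (median 0.15). Pik3r1, the regulatory subunit of PI3 kinase, stood at 611, 552 and 92.5 CPM against 86.0, 72.8, 92.1 and 110.5 CPM (2.21, SE 0.49, adjusted p = 0.144), high in PLT-HSC libraries 1 and 2 only. In the NF-kB list (median 0.24) Nfkbia, the inhibitor that NF-kB itself induces, stood at 306, 342 and 249.9 CPM against 168, 158, 189 and 183 CPM (0.78, SE 0.20, adjusted p = 0.26), without overlap. Immediate early genes, which respond quickly to growth factors and stress, had 23 of 29 members positive, but the value depended on single libraries. Their list mean was 1.25, -0.42 and -0.05 in PLT-HSC against -1.63, 0.10, 0.14 and 0.54 in MUL-HSC. Without PLT-HSC library 1 the median went from 0.62 to -0.45 and 9 of 29 were positive. Without MUL-HSC library 1 the median was 0.31 and 19 of 29 were positive. In the NOTCH list (19 of 30 positive, median 0.20) the target Hes1 and the ligand Dll4 were among those with an unadjusted p under 0.05. Hes1 stood at 50.2, 18.5 and 16.4 CPM against 4.01, 8.48, 16.1 and 11.7 CPM, and Dll4 was at 5.95, 0 and 0.363 CPM against 0, 0.0404, 0 and 0 CPM. In the WNT list, 22 of 37 were positive (median 0.12, and -0.22 without PLT-HSC library 3). At that p 2 members had lower levels and 0 had higher (3.26% and 4.11% of all genes). G protein and ion channel genes had a median of 0.16, and their members Gng12, a G protein subunit, and Rgs19, which turns G proteins off, stood at 70.4, 64.5 and 54.2 against 115, 113, 94.4 and 124 CPM (-0.82) and at 249, 268 and 152 against 317, 449, 353 and 317 CPM (-0.69).

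Retinoid genes as a list had no common sign (12 of 22 positive, median 0.03). Of the 22, 4 had an unadjusted p under 0.05, all with higher levels in PLT-HSC, against 4.11% of all genes. Cyp26b1, which degrades retinoic acid and is induced by it, stood at 25.7, 21.997 and 5.39 CPM against 0.0466, 1.29, 3.85 and 6.26 CPM (2.62). Tgm2, a transglutaminase induced by retinoic acid, stood at 93.6, 55.0 and 83.4 CPM against 21.3, 22.5, 29.4 and 69.2 CPM (1.12). Aldh1a1, which makes retinoic acid from retinal, stood at 186, 223 and 409 CPM against 131, 58.4, 205 and 168 CPM (0.96). In each of the 3 genes at least 1 library overlapped with the other group. Metallothioneins, which bind zinc and copper, separated: Mt1 stood at 299, 330.2 and 164 CPM against 12.1, 7.11, 131 and 53.2 CPM (2.38, SE 0.69, adjusted p = 0.411), and Mt2 at 32.2, 55.8 and 21.1 CPM against 0, 0, 9.96 and 1.96 CPM (3.61). MUL-HSC libraries 1 and 2 were the lowest for both. The antioxidant list around them had 25 of 50 members positive. At an unadjusted p under 0.05, 6 were higher and 1 lower (4.11% and 3.26% of all genes).

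Genes of mitochondria had small negative medians. In the mitochondrial ribosome 60 of 76 genes were negative (median -0.17, and 0.02 without MUL-HSC libraries 1 and 2), in oxidative phosphorylation 54 of 81 (median -0.08, and 0.09 with 59 positive without those libraries) and in the TCA cycle and fatty acid oxidation 29 of 50 (median -0.10). Etfa, an electron carrier of fatty acid oxidation, stood at 250.0, 287 and 261 CPM against 432, 546, 303 and 359.6 CPM (-0.63, SE 0.20, adjusted p = 0.491). Uqcrc1, a core subunit of complex III, stood at 779, 807 and 718 CPM against 980.4, 985, 932 and 969.7 CPM (-0.33). Mrpl50, of the large mitochondrial ribosome subunit, stood at 109.9, 90.4 and 105 CPM against 169.9, 147, 154 and 148 CPM (-0.61). Each was separated, and the gap was narrow for Etfa, whose MUL-HSC libraries spread more widely than those of Uqcrc1 and Mrpl50. Pdhb, of the pyruvate dehydrogenase complex, and Idh3a, of the TCA cycle, had log2 fold changes of -0.56 and -0.55. In glycolysis (22 of 37 positive, median 0.12, and -0.01 without PLT-HSC library 3) Pgk1 stood at 89.0, 113 and 83.4 CPM against 175, 155, 149 and 124 CPM (-0.67). Proteins of the cytosolic ribosome went the other way in number, with 70 of 82 positive but a median of only 0.14, and without PLT-HSC library 2 40 of 82 were positive. Rps28 stood at 162, 97.9 and 96.6 CPM against 89.5, 66.2, 79.7 and 60.0 CPM (0.69), and these genes have many near-identical copies that can share reads. The proteasome had 33 of 48 members negative (median -0.16, and 0.04 with 28 positive without MUL-HSC libraries 1 and 2). Cholesterol synthesis had 21 of 33 negative (median -0.11, and 0.08 without MUL-HSC library 3 or 0.03 without PLT-HSC library 1).

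Lysosome and autophagy genes had positive values in 48 of 64 members (median 0.27, and 0.09 with 40 positive without PLT-HSC library 1). At an unadjusted p under 0.05, 3 were higher and 1 lower (4.11% and 3.26% of all genes). Cd68, a lysosomal membrane protein that macrophages carry in quantity, stood at 187, 174 and 23.8 CPM in PLT-HSC against 11.8, 12.5, 19.7 and 12.5 CPM (3.18, SE 0.74, adjusted p = 0.186), with library 3 close to MUL-HSC. Of the 13 macrophage markers, 8 were tested, Cd68 among them. Their list mean was 0.10, -0.23 and -0.12 in PLT-HSC and -0.30, -0.59, -1.28 and -0.60 in MUL-HSC. In that mean each PLT-HSC library thus lay above each MUL-HSC library, as did the PEM-HSC libraries (0.16 to 1.39). Of the 8 log2 fold changes, however, 4 were positive and 4 negative, with a median of -0.10. The sums of all 13, which overlapped between the groups, and the markers at 0 are given above. The part of macrophages in the level of Cd68 was not tested. The autophagy receptor Sqstm1 stood at 196, 54.7 and 119 CPM against 50.2, 51.3, 55.5 and 85.6 CPM (1.02). Genes of ER chaperones (28 of 41 positive, median 0.10, and -0.03 without PLT-HSC library 1) and of heat shock (20 of 38) had 0 members with an unadjusted p under 0.05 in either direction, against 7.37% of all genes. The p53 list (28 of 57 positive, median -0.04) had 1 member at that p, and the apoptosis list (20 of 34, median 0.10, and -0.11 without PLT-HSC library 1) had 2.

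Chromatin and RNA genes held a few separated members. Of 66 Polycomb and Trithorax genes, 4 lay wholly above MUL-HSC and 1 wholly below (3.66% and 2.93% of all genes). Of 45 SR splicing genes, 2 lay above and 2 below. Polycomb and Trithorax genes had 42 of 66 positive (median 0.27, and -0.09 without PLT-HSC library 3). Cbx7, a Polycomb protein that favours self-renewal, stood at 26.4, 32.3 and 50.5 CPM against 9.28, 17.3, 11.9 and 13.2 CPM (1.49), and Eed, a core subunit of the complex that methylates histone H3, at 126, 109 and 113 CPM against 226, 227, 185 and 119 CPM (-0.71). Cbx7 was separated, and Eed overlapped through MUL-HSC library 4. Core histones had 25 of 35 tested members negative, and 40 more had too few counts to be tested. Srsf2, a splicing factor mutated in blood cancers, stood at 507, 543 and 538 CPM against 968, 935, 726 and 779.8 CPM (-0.69, SE 0.18, adjusted p = 0.254). Neat1, the noncoding RNA of paraspeckles, stood at 80.0, 88.0 and 101 CPM against 20.5, 30.0, 33.8 and 40.2 CPM (1.52, SE 0.40, adjusted p = 0.27). Both had a tight PLT-HSC group and no overlap. Rock2, a kinase of actomyosin tension, stood at 143, 225 and 217 CPM against 91.9, 104, 124 and 128 CPM (0.80, adjusted p = 0.491), also without overlap. Of the clock genes (15 of 23 positive, median 0.46), Arntl, the core activator BMAL1, stood at 10.2, 18.5 and 21.5 CPM against 54.6, 37.2, 44.1 and 56.2 CPM (-1.52), and Per3, a period protein of the same loop, at 31.5, 35.9 and 45.0 CPM against 45.3, 127, 86.4 and 75.3 CPM (-1.15). Both were separated, with the sign opposite to the list's median.

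The 6 PEM-HSC libraries were set beside the genes that passed the test. Comparisons of PLT-HSC with PEM-HSC and with MUL-HSC share the PLT-HSC libraries, so their values are given side by side only. Against PEM-HSC 0 of 12536 genes passed the adjustment with edgeR (0%), and 467 had an unadjusted p under 0.05 (3.73%). Between PEM-HSC and MUL-HSC 1 gene passed with edgeR (0.00798%). It was Vwf, higher in PEM-HSC (log2 fold change 2.94, adjusted p = 0.0234). Rdh10 in PEM-HSC had a lowest, median and highest level of 8.99, 46.5 and 90.1 CPM, all above the MUL-HSC libraries, and its log2 fold change of PLT-HSC over PEM-HSC was 1.32 (SE 0.65). Ctnnal1 had 16.1, 30.6 and 53.7 CPM in PEM-HSC, below each PLT-HSC library and above each MUL-HSC library (PLT-HSC over PEM-HSC 1.28, SE 0.44). Mef2c had 166, 250.5 and 317 CPM there (0.64, SE 0.21), below PLT-HSC and overlapping MUL-HSC. Otos had 44.7, 72.5 and 82.9 CPM (-1.43, SE 0.35), between the other groups with no overlap. Phf11d had 132, 178 and 246 CPM (0.54, SE 0.30) and Vwf 31.7, 81.0 and 114 CPM (0.78, SE 0.39), both above MUL-HSC and overlapping PLT-HSC. All 6 had an adjusted p of 1 for PLT-HSC against PEM-HSC.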

How the data were processed

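RNA was measured in 13 libraries, of which 3 PLT-HSC and 4 MUL-HSC libraries were compared, grouped by the labels. The submitters' processing notes name STAR and featureCounts, with Trimmomatic and FastQC, and the build mm9. Their versions, annotation and strand mode are not given in the sources used here, so a gene and its antisense neighbour cannot be told apart. The authors deposited unnormalized counts of reads by gene symbol, and, as the labels name no molecular identifiers, PCR copies are counted. The 92 spike-in rows were removed before library sizes were taken. Counts were tested with edgeR 4.0.16 in R 4.3.3: filterByExpr, TMM scaling, and a robust quasi-likelihood fit of the 3 group means over all 13 libraries, the contrast PLT-HSC minus MUL-HSC and Benjamini-Hochberg adjustment over 12536 genes. CPM are counts scaled to a common total by the TMM-adjusted library size. The spread between libraries was wide (common biological coefficient of variation 0.993, median per gene 0.624), with 16371921 counts or more per library. Replicates differed by more than counting noise (chi-square per degree of freedom of 172 or more in genes reaching 20 counts). The fit was tested on simulated counts.

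The groups compared, the 50 gene lists (2013 distinct tested genes, of which some belong to several lists), the 10 marker lists and the rule for named genes were chosen with earlier results of these data known. That rule takes, per direction, the 12 named genes with the smallest p and no overlap, up to 4 members per list with an unadjusted p under 0.05 and its most abundant member, the sort genes, and genes at 0 in 1 group. Alternatives were RLE scaling, library totals only, other filters, no robust estimation, only the 7 libraries, DESeq2 1.42.0, limma 3.58.1 with voom, a replicate block, the number of detected genes as a covariate, and leaving out libraries. Promoters came from RefSeq tables of GRCm38.p6, a later build than the counts, matched by symbol for 10016 tested genes. A few genes and 1 list are not reported here.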

Additional observations from a re-analysis of the deposited data

Results flagged for a closer look

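Of 159 genes and 50 list means examined within the 4 MUL-HSC libraries on the log2(CPM + 1) scale, 10 genes and 2 list means had 1 library far from the other 3, measured as its gap to the nearest library over the whole range. Chance gives such a result in about 1 in 20 groups, and the flagged genes and list means came near that share. The flags below therefore cannot be told apart from chance. MUL-HSC library 3 stood apart most often: it was highest for Cd68 (0.886 of the range), H2-K1 (0.898), Hoxb8 (1) and Mllt3 (0.912), and lowest for Rfc5 (0.873) and Slc22a3 (0.9). MUL-HSC library 2 was highest for Dll4 (1) and lowest for Epb4.1 (0.83) and Rora (0.89). MUL-HSC library 4 was highest for Myc (0.858) and for the list means of retinoid genes (0.935) and of platelet granule and cytoskeleton genes (0.91). For Dll4 and Hoxb8 the other 3 libraries were at 0. The Dll4 level in MUL-HSC library 2 was itself below the 0.121 CPM that 3 counts give there. Slc22a3, an organic cation transporter, stood at 34.3, 23.7, 0 and 28.2 CPM in MUL-HSC and at 0, 0 and 1.01 CPM in PLT-HSC. Rora, a nuclear receptor of the clock, stood at 11.2, 5.45, 12.04 and 12.2 CPM in MUL-HSC and at 22.5, 44.7 and 16.0 CPM in PLT-HSC. The groups of 3 PLT-HSC libraries were too small for this check.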

How the results depend on the processing

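The number of genes that passed moved with the method and the libraries: 6 (5 higher, 1 lower) as reported and with RLE scaling, 11 (7 and 4) with no filter on low counts, 13 (8 and 5) with at least 10 CPM in at least 3 libraries, 4 (3 and 1) without robust estimation, 1 (1 and 0) with only the 7 libraries, 249 (150 and 99) with DESeq2, 0 with voom (1095 at an unadjusted p under 0.05), 6 (6 and 0) once the number of detected genes entered the fit, 4 (4 and 0) with library totals only, and 1 (1 and 0) without MUL-HSC libraries 1 and 2. Leaving out 1 library gave 1 to 37 genes, 1 to 20 higher and 0 to 17 lower. The replicate block gave 2 (2 and 0). Deviations of same-numbered libraries from their group means correlated at -0.127, 0.0473 and -0.156. Those of differently numbered libraries correlated at -0.128 to 0.120. So few values, centred within small groups, cannot show whether the numbers pair libraries. The last 2 alternatives on libraries and totals were chosen after seeing the data.

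List medians that moved by more than the spread were as follows, and the cause was not tested. With voom they were 0.17 for erythroid, -0.029 for granulocyte and monocyte, -0.83 for lymphoid priming, 0.70 for TGF-beta and 0.86 for clock genes. With the replicate block they were 0.33 for platelet receptors, -0.72 for lymphoid priming, 0.63 for TGF-beta, 0.074 for SR factors, 0.82 for clock genes and 0.73 for extracellular matrix. With the covariate they were 0.16 for erythroid and -0.76 for lymphoid priming. With the 10 CPM filter they were 0.085 for granulocyte and monocyte and 0.19 for lipid mediators, and with no filter -0.035 for granulocyte and monocyte. Without MUL-HSC libraries 1 and 2 they were 0.18 for granulocyte and monocyte, -0.065 for core histones, 0.11 for heat shock and 0.78 for extracellular matrix. Leaving out 1 library, they ran from 0.12 to 0.46 for platelet receptors, 0.056 to 0.58 for megakaryocyte and erythroid factors, 0.16 to 0.52 for erythroid, -0.30 to 0.043 for granulocyte and monocyte, -0.73 to -0.24 for lymphoid priming, -0.073 to 0.59 for TGF-beta, -0.45 to 1.03 for immediate early, 0 to 0.30 for NF-kB, -2.73 to -0.34 for mitosis, -0.092 to 0.36 for Polycomb, -0.73 to -0.17 for core histones, -0.21 to 0.18 for lipid mediators, -0.14 to 0.087 for heat shock, 0.22 to 0.79 for clock genes and 0.088 to 0.92 for extracellular matrix. Over all alternatives, 856 of the other list values stayed within the spread, and none of the 151 named genes with a fitted fold change changed sign. Those genes were picked by small p in the same libraries, so a stable sign was largely built in. Depth limits the genes at 0: in the shallowest library, with 16371921 counts, a level of 0 allows up to 3 counts.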

Other observations

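Several groups of genes not described so far had members with small p values among all tested genes, none of which passed the adjustment. Extracellular matrix genes had positive values in 16 of 25 tested members (median 0.24). Higher levels in PLT-HSC at an unadjusted p under 0.05 were seen in 4 (4.11% of all genes). Ecm1, a secreted matrix protein, stood at 78.5, 61.3 and 30.4 CPM in PLT-HSC, compared with 5.31, 9.65, 12.8 and 48.0 CPM in MUL-HSC, and MUL-HSC library 4 lay among the PLT-HSC libraries. Transporter genes had 22 of 34 positive (median 0.37), and Abcg3 stood at 225, 97.0 and 134 CPM against 66.2, 35.1, 68.9 and 106 CPM (log2 fold change 1.14, adjusted p = 0.515 by edgeR). Slc29a1, a nucleoside transporter, had the opposite sign and was separated, at 32.9, 56.6 and 90.9 CPM against 129.7, 139, 101 and 161 CPM (-1.14, adjusted p = 0.645).

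Lipid mediator genes had no common sign (19 of 39 positive, median -0.04). Ptger4, a prostaglandin E2 receptor, stood at 131, 38.2 and 39.5 CPM against 22.4, 11.4, 37.0 and 29.2 CPM (1.47, adjusted p = 0.589), separated by a narrow gap. Imprinted genes had 11 of 20 positive (median 0.27), with Ndn, a growth suppressor, at 102, 75.6 and 90.4 CPM against 38.4, 16.2, 53.8 and 18.7 CPM. Genes of amino acid supply had 20 of 43 positive (median -0.09), with Shmt1, an enzyme of serine and folate metabolism, at 13.3, 17.4 and 39.6 CPM against 83.7, 77.8, 34.2 and 68.0 CPM (-1.49, adjusted p = 0.513). DNA methylation genes had 13 of 21 positive (median 0.07). Ndn was separated, and Shmt1 overlapped through MUL-HSC library 3.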
